A study of Mus musculus with 14 samples.

Results

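The tumours described here are the 10 SMM102 tumours grown under PLX4032, of 14 tumours in the series. They comprise 6 late tumours, 2 from day 18 and 4 from day 27 of treatment, and 4 early tumours, 2 each from day 3 and day 6. They were chosen by the group named in each column of the deposited table. SMM102 is a mouse melanoma cell line and was injected subcutaneously at 2 sites per mouse into C57BL/6J females aged 6 to 8 weeks. PLX4032, known as vemurafenib, was given into the peritoneum at 50 mg/kg on 5 days per week, starting at a tumour volume of 150 to 300 mm3. The remaining 4 tumours, 2 each from day 3 and day 6, are controls that the sample labels call untreated, whereas the design text gives them vehicle. No control was taken at day 18 or day 27, so the length of treatment and the age of the tumour cannot be told apart. The 4 day 27 tumours are the left and right tumours of 2 mice, which the columns do not name. They entered as separate samples, so p-values that use day 27 are too small, and the other p-values share the same estimate of spread. For day 18 nothing says that the tumours came from separate animals.

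PLX4032 blocks the mutant BRAF kinase, which otherwise drives MEK and ERK, the last steps of the MAPK cascade that keeps melanoma cells dividing. In BRAF-mutant melanoma the drug first lowers ERK output and proliferation while T cells and macrophages can enter the tumour, and cells that restore ERK signalling or find another growth signal can later regrow. A tumour sampled whole, as here, mixes melanoma cells with immune cells, vessels, fibroblasts, fat and muscle, so fewer cells of a type and less RNA per cell cannot be told apart.

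RNA sequencing gave 1 signal per gene and tumour that resembles rescaled TPM, with column totals from 879385 to 1084401. The read depth is unknown. Of the genes tested, 15841 had a signal of 1 or more in at least 2 of 14 tumours. Changes are differences of log2(signal + 1), late minus early with each day weighted equally unless stated, from limma, with a standard error (SE). They understate the fold of genes with low signal. A gene was called at a Benjamini-Hochberg adjusted p under 0.05. Markers of the melanocyte lineage were low throughout. Mitf, the master regulator of that lineage, had a signal of 1.56 to 3.59 in late tumours and 2.56 to 10.4 in early tumours, and 7 of the 15 melanocyte genes looked for were tested. Vim, an intermediate filament of mesenchymal cells, had 2769 to 5001 in late tumours and 3532 to 4735 in early tumours.

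Late tumours differed from early tumours in 6331 genes, 40.0% of those tested, with 3260 higher (20.6%) and 3071 lower (19.4%), and a median change of 0.01 over all genes. Most of this difference lay against day 3. Day 27 differed from day 3 in 8234 genes (52.0%), with 24.6% higher and 27.4% lower. Day 18 differed from day 3 in 5432 genes (34.3%), with 19.2% higher and 15.1% lower. Day 27 differed from day 6 in only 1832 genes (11.6%), with 3.81% higher and 7.76% lower. Day 18 differed from day 6 in 239 genes (1.51%), with 1.36% higher and 0.145% lower. With the day 3 tumours left out of the early side, 144 genes were called late against early. For 26 genes, 0.164% of those tested, every late day differed from every early day in the same direction, 14 higher (0.0884%) and 12 lower (0.0758%). With median-of-ratios rescaling there were 21, of which 9 were higher and 12 lower. The comparison of day 18 with day 6 set this number, since 869 genes passed the other 3 day comparisons. The early days differed from each other in 2892 genes (18.3%), with 1730 higher (10.9%) and 1162 lower (7.34%) at day 6 than at day 3, and without day 3 tumour 2 this number was 1074. The number of genes differing in all 4 day comparisons rested on single tumours. Instead of 26 it was 118 without day 6 tumour 1, 1 without day 6 tumour 2, 13 and 9 without day 18 tumour 1 and tumour 2, and 12 and 17 without day 27 tumour 1 and tumour 2. Averaged as 2 mice in the 3 possible pairings, the day 27 tumours gave 14, 5 and 13 genes, and averaged to 1 sample they gave 0 by limma, with 360 genes at an unadjusted p under 0.05 in all 4 day comparisons. The day comparisons chose these genes, so their late and early values below are a description.

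The 4 genes with the greatest fall among the 26 were Gzmd, Gzme, Gzmf and Gzmg, neighbouring genes on chromosome 14 for granzymes, serine proteases that mouse cytotoxic lymphocytes carry in their granules. The 250 bases before the start of each gene are shown because the 4 genes moved together and have like promoters (RefSeq sequences, build GRCm38.p6, all on the minus strand, chr14:56132594-56132843, chr14:56120626-56120875, chr14:56211408-56211657 and chr14:56159580-56159829, written 5′ to 3′). Capitals mark TGANNTCA, which includes the cAMP response element TGACGTCA.
Gzmd: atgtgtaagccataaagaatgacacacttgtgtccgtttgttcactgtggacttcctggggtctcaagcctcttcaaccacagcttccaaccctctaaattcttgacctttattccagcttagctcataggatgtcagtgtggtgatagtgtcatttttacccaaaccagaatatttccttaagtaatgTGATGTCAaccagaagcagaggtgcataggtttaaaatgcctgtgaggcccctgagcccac
Gzme: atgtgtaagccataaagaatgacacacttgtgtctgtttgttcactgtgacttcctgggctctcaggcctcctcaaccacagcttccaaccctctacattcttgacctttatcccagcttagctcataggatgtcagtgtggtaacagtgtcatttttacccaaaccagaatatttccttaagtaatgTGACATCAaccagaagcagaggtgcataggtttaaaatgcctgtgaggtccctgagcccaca
Gzmf: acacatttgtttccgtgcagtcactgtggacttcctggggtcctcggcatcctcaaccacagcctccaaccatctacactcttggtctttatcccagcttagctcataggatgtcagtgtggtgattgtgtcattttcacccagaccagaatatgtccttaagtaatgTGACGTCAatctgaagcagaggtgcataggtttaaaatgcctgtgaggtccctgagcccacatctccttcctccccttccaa
Gzmg: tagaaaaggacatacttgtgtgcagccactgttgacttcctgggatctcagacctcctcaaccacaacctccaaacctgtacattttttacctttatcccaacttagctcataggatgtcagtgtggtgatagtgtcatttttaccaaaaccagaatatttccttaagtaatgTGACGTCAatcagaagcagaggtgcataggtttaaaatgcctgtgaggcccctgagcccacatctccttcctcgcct
The pair Gzmd and Gzme shared 94.8% of aligned promoter bases, and the other pairs of the 4 shared 74.5% to 82.2%. TGANNTCA, read on both strands, stood in all 4 of these windows and in 8.86% of 10924 promoter windows of the same length from genes tested. This looser pattern takes in TGATGTCA in Gzmd and TGACATCA in Gzme. The 4 windows are alike in sequence and so not independent, and their count cannot be weighed against the share of all windows. TGACGTCA itself stood in those of Gzmf and Gzmg and in 2.64% of all windows. It also stood in the window of Gzmc, a gene of the same cluster that is not among the 26 and is described below. The Gzmc window shared 70.2% to 80.9% of aligned bases with those of the 4 genes. A match of letters does not show that a factor binds there.

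Gzmg had a signal of 0 and 0 at day 18 and 0.198 to 0.398 at day 27, against 135 and 655 at day 3 and 42.6 and 44.1 at day 6. Gzmf had 0.0644 to 2.03 in late tumours with a median of 0.969, against 152 and 614 at day 3 and 45.5 and 61.2 at day 6. All late tumours lay more than an order of magnitude below all early tumours for both genes. Gzmd had 0.243 to 2.40 in late tumours with a median of 0.943, against 130 and 618 at day 3 and 30.6 and 53.7 at day 6. Gzme had 0.0646 to 1.58 in late tumours with a median of 0.529, against 51.2 and 295 at day 3 and 12.4 and 19.0 at day 6. Day 3 tumour 2 was the highest tumour for each of the 4 genes. The changes were -6.65 (SE 0.33) for Gzmg, -6.33 (SE 0.34) for Gzmf, -5.96 (SE 0.39) for Gzmd and -4.98 (SE 0.42) for Gzme.

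The controls also had these granzymes. The controls entered the fit and the filter that chose the 26 genes (46 genes were called in a fit of the treated tumours alone), and the late and early values chose them, so differences from controls are given for these genes as a description with no test. Gzmg ran from 85.1 to 137 in the 4 controls, Gzmf from 69.7 to 141, Gzmd from 68.9 to 96.8 and Gzme from 28.5 to 42.5. Late minus control was -6.56 for Gzmg, -5.98 for Gzmf, -5.53 for Gzmd and -4.59 for Gzme, with all 6 late tumours below all 4 controls. Late against control called 1084 genes, 6.84% of those tested, with 2.75% lower and 4.09% higher. Early minus control was 0.09 to 0.43 for the 4 genes, a mean over early days that differed from the controls in opposite directions. For each of the 4 genes the day 6 tumours lay below all 4 controls. The day 3 tumours lay above all 4 controls, except the lower day 3 tumour for Gzmg, which lay within the control range. Gzmc, a further granzyme gene of the cluster, named here after its values were seen, kept a signal in late tumours of 15.6 to 39.9, against 164 and 722 at day 3, 41.1 and 169 at day 6 and 45.9 to 74.8 in controls. The 5 genes are close copies: 38.2% of the 31-base words in transcripts of Gzmd, 42.1% in Gzme, 22.8% in Gzmf, 33.8% in Gzmg and 14.8% in Gzmc also occur in transcripts of other genes, so the split of reads between them is uncertain.

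**Figure D1:**
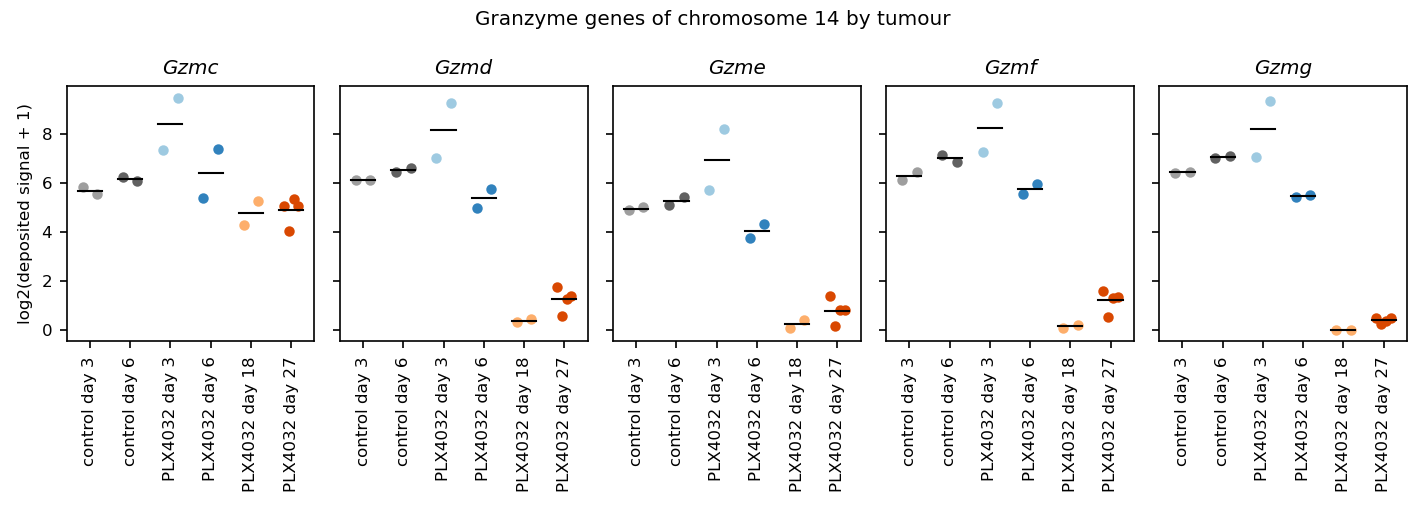
Signal of 5 granzyme genes of chromosome 14 in each tumour, as log2(deposited signal + 1), by group, with controls at the left and PLX4032 days in order; points are tumours and bars are group means of the log2 values. Gzmd, Gzme, Gzmf and Gzmg lie near the bottom of the scale at day 18 and day 27 alone, while Gzmc stays above 4 on the log2 scale in every tumour.

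Gzmb, an apoptosis-inducing granzyme gene that is also named after its values were seen, had 6.12 to 24.7 in late tumours with a median of 9.44, against 84.5 and 209 at day 3 and 20.01 and 177 at day 6. Its controls, at 14.7 to 20.5, lay within the range of the late tumours, as did part of the early range, since day 6 tumour 1 was below the highest late tumour. Gzma, another granzyme gene, had 0.6246 to 9.67 in late tumours with a median of 1.39, against 80.5 and 312 at day 3 and 11.9 and 73.3 at day 6. The late and early tumours did not overlap for Gzma. The changes were -2.88 for Gzmb (SE 0.55, adjusted p = 0.00258) and -4.20 for Gzma (SE 0.51, adjusted p = 0.000331).

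Of the other 8 lower genes among the 26, several have known roles in signalling and myeloid cells. Map3k8 encodes TPL2, also called COT, a kinase that activates MEK, and in human melanoma cells it is known as a route to ERK activation past a RAF inhibitor. Its signal was 3.73 to 6.85 in late tumours with a median of 5.47, against 20.7 and 26.3 at day 3 and 12.1 and 14.9 at day 6. The late tumours all lay below the early ones, and the controls, at 7.33 to 9.71, lay between (change late minus early -1.57, SE 0.16). Gpr84, a receptor for medium-chain fatty acids on myeloid cells, had 0.502 to 3.10 in late tumours with a median of 0.936, against 6.75 and 11.6 at day 3 and 6.70 and 13.7 at day 6. Gpr84 in the controls, at 0.155 to 1.84, was near the late level (change late minus early -2.04, SE 0.22). Gpr31b, a G protein-coupled receptor gene, had 1.84 to 6.13 in late tumours, against 8.54 and 9.89 at day 3 and 14.6 and 25.5 at day 6. It stayed above the controls, at 0.384 to 1.09, in 6 of 6 late tumours (change late minus control 1.44). Of its 31-base words, 92.3% occur in other transcripts, so its signal cannot be assigned to it with certainty.

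Mmp13 encodes a collagenase of the matrix metalloproteinase family. Its promoter is shown because the window holds the element TGACTCA (capitals), a form of TGANTCA, the AP-1 site through which ERK signalling reaches many genes (RefSeq, GRCm38.p6, plus strand, chr9:7272264-7272513).
Mmp13: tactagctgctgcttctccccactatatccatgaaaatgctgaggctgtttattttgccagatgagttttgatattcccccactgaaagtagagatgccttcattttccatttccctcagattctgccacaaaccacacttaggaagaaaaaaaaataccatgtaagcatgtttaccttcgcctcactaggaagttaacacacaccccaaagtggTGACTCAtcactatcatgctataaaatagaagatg
TGANTCA, on both strands, stood in 4.79% of all 10924 windows, in 2 of 10 windows of the lower genes among the 26 and in 1 of 11 windows of the higher genes. Mmp13 had 3.45 to 6.18 in late tumours with a median of 5.41, against 9.09 and 15.3 at day 3 and 13.7 and 20.1 at day 6. Controls ran from 7.78 to 22.3, so the late tumours were below both other groups (late minus early -1.35, SE 0.19; late minus control -1.20). Satb1, a chromatin organiser needed for T cell development, had 5.05 to 5.94 in late tumours, against 12.8 and 17.5 at day 3 and 10.9 and 10.5 at day 6. The 4 controls, at 7.37 to 10.4, lay above every late tumour (late minus control -0.61). Rab7b, a small GTPase of late endosomes, had 14.4 to 22.9 in late tumours, 33.4 to 54.7 in early tumours and 16.5 to 21.9 in controls. Abtb2, which encodes a protein with ankyrin repeats and a BTB domain, had 2.98 to 4.13 in late tumours, 6.59 to 8.62 in early tumours and 3.69 to 4.33 in controls. Late and control tumours overlapped for Rab7b and Abtb2. Heatr9 was the remaining lower gene, with at most 0.476 in late tumours and at least 1.08 in early tumours.

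The higher genes among the 26 were led by Atg9b, a relative of the autophagy lipid scramblase gene Atg9a. Atg9b had 31.5 and 46.7 at day 18 and 39.3 to 69.0 at day 27, against 1.58 and 0.700 at day 3 and 9.92 and 6.77 at day 6. Controls ran from 14.5 to 24.9, above every early and below every late tumour. The change was 3.43 late minus early (SE 0.22), 1.31 late minus control and -2.13 early minus control.

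A pair of the higher genes act in the matrix around cells. Plau encodes urokinase, a secreted protease that activates plasminogen. It had 107 to 158 in late tumours with a median of 138, against 40.9 and 47.4 at day 3, 46.2 and 66.1 at day 6 and 31.3 to 71.4 in controls. Col15a1, a collagen of basement membranes, had 48.9 to 114 in late tumours with a median of 73.2, against 20.3 and 43.0 at day 3, 19.9 and 17.7 at day 6 and 8.55 to 17.2 in controls. For both genes every late tumour was above every early and control tumour. Late minus control was 1.48 for Plau and 2.51 for Col15a1, and early minus control was 0.09 for Plau and 0.80 for Col15a1.

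Acsl6, an acyl-CoA synthetase for long-chain fatty acids, had 9.21 to 13.01 in late tumours, against 1.80 and 1.00 at day 3, 3.94 and 3.4 at day 6 and 4.05 to 4.86 in controls. Uck2, a kinase of the pyrimidine salvage route, had 136 to 189 in late tumours, against 50.2 and 52.4 at day 3, 107 and 110 at day 6 and 99.9 to 114 in controls. Both genes were above every control in every late tumour, and both were at their lowest at day 3. Ptcd3, a component of the mitochondrial ribosome, had 59.4 to 72.9 in late tumours, 27.7 to 46.4 in early tumours and 44.3 to 49.0 in controls. Plpp3, a phosphatase of lipid phosphates at the cell surface, had 60.2 to 87.2 in late tumours, 31.7 to 50.4 in early tumours and 43.2 to 54.3 in controls. Abhd5, an activator of fat breakdown on lipid droplets, had 48.2 to 61.7 in late tumours, 25.5 to 42.3 in early tumours and 43.2 to 50.2 in controls. The late and control tumours overlapped for Abhd5, whose late minus early change of 0.73 was the smallest of the 26 in size and was no longer called late against day 6 alone.

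Of the remaining higher genes, Kif17, a kinesin motor gene, had 6.99 to 11.9 in late tumours, 0.983 to 1.87 in early tumours and 3.85 to 18.6 in controls. Its late and control ranges overlapped (late minus control 0.22). Btbd11, which like Abtb2 encodes a protein with ankyrin repeats and a BTB domain, had 28.5 to 38.7 in late tumours, 4.37 to 19.1 in early tumours and 20.02 to 29.2 in controls. Mpp6, a scaffold protein of cell junctions, had 30.2 to 48.3 in late tumours, 14.8 to 21.7 in early tumours and 23.8 to 28.6 in controls. Prtn3, which encodes proteinase 3 of immature neutrophils, had 31.2 and 13.9 at day 18 and 2.69 to 3.37 at day 27, against 0.981 to 1.85 in early tumours. It was lower at day 27 than at day 18 (-2.40). Disp2 had 1.72 to 4.59 in late tumours and 0.344 to 0.626 in early tumours, and the long noncoding RNA gene Gm45282 had 0.869 to 1.69 in late tumours and 0 to 0.487 in early tumours. Across the 14 higher genes late minus control ran from 0.18 to 2.51 and early minus control from -2.13 to 0.80. These comparisons share the late tumours, the early tumours or the controls with each other. At the threshold, the largest of the 4 adjusted p of a gene was 0.0417 for Map3k8, 0.0439 for Abhd5 and 0.0488 for Ptcd3 just inside it, and 0.0508 for Mtfp1, 0.0528 for Ptpn13 and 0.0529 for Nefl just outside it.

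**Figure D2:**
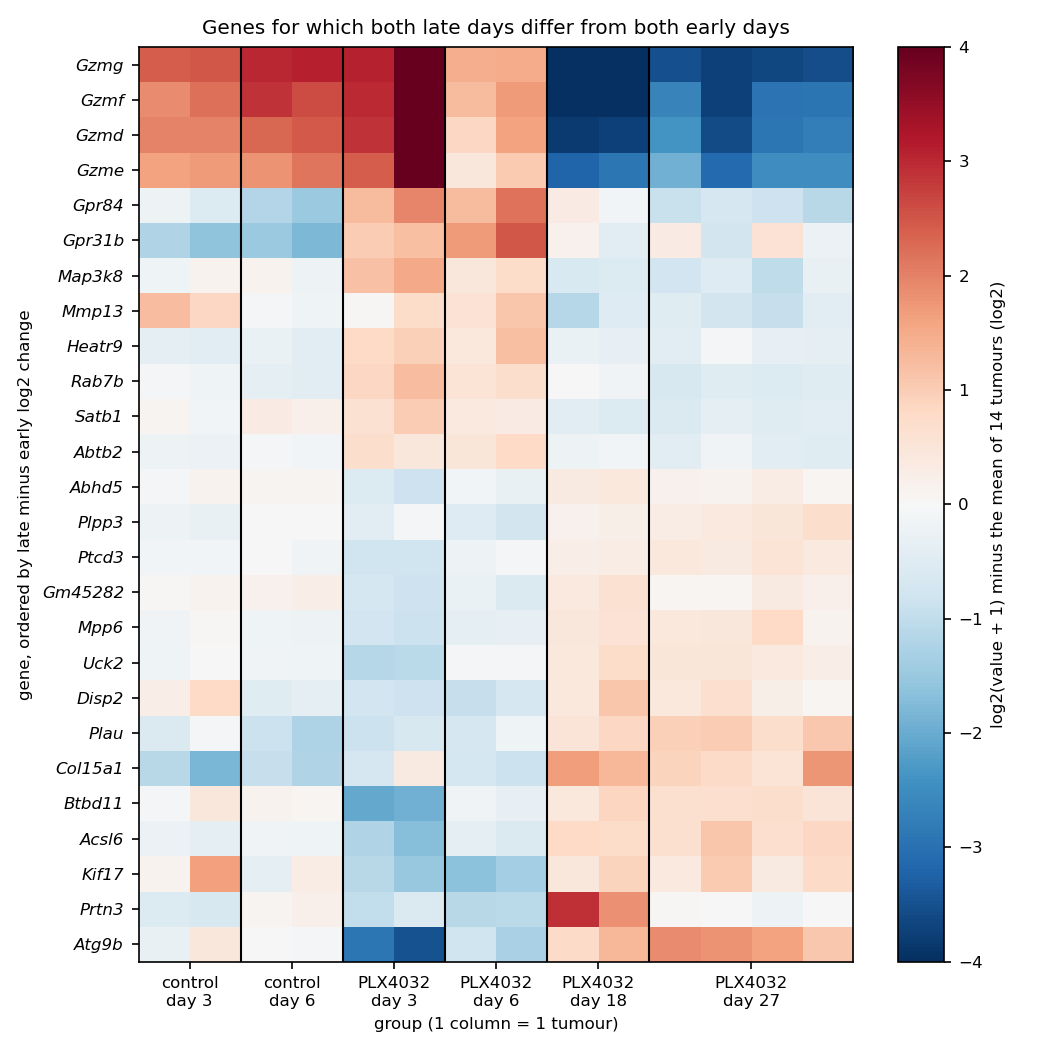
The 26 genes for which both late days differed from both early days, in rows ordered by their late minus early change, and the 14 tumours in columns, with controls at the left and PLX4032 days in order. Colour gives log2(signal + 1) minus the mean of the gene over the 14 tumours; the day 18 and day 27 columns have one colour sign and the day 3 and day 6 columns the other for most genes, with Prtn3 near 0 at day 27. The colour scale ends at -4 and 4.

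A wider set was called late against early, moved in one direction in all 4 day comparisons and had no overlap between the 6 late and the 4 early tumours. It held 1714 genes (10.8%), 840 higher (5.30%) and 874 lower (5.52%). Without the call and the day comparisons, 5.91% of genes tested had all late tumours above all early tumours and 5.83% had them all below. Beyond the granzymes, with names chosen after the values were seen, the falls included Ly6i, a surface protein gene of the Ly6 family, and Marco, a scavenger receptor of macrophages. Ly6i had 0.339 to 10.2 in late tumours, against 82.9 and 255 at day 3 and 17.5 and 155 at day 6. Marco had 0.0524 to 0.653 in late tumours, against 23.3 and 146 at day 3 and 1.62 and 8.69 at day 6. Their controls, at 0.792 to 6.73 and 0 to 1.36, lay near the late level. Among the rises were Nptx1, a secreted pentraxin of neurons, with 32.8 to 64.0 in late tumours, against 4.37 and 2.89 at day 3 and 11.7 and 3.92 at day 6, and Nefl, a neurofilament subunit, with 15.7 to 46.3 in late tumours, against 1.92 and 1.18 at day 3 and 11.5 and 14.6 at day 6. The promoter element GAAANNGAAA, the core of the interferon-stimulated response element, stood in 5.73% of 646 windows of the lower genes, 1.81% of 608 windows of the higher genes and 2.81% of all windows, counted on both strands and without a test. Other motifs counted also differed. In windows of the lower genes TTCNNNGAA stood in 9.13% (6.04% of all windows), TGANTCA in 7.59% (4.79%) and TATAAA in 8.98% (7.02%). TGANNTCA stood in 10.1% (8.86%), TGACGTCA in 2.01% (2.64%) and CCAAT in 33.4% (36.2%).

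The pathway lists were read against the shares of all genes given above. At an unadjusted p under 0.05, 2188 of the 15841 genes tested differed in either direction for day 18 against day 6. For day 27 against day 6 there were 4372. Of 20 genes of ERK output, 14 rose and 0 fell, with a median change of 0.56. Against day 3, 12 were higher at day 18 and 15 at day 27. Against day 6 the counts were 0 at day 18 (4 at an unadjusted p under 0.05) and 3 at day 27 (11 in either direction at an unadjusted p under 0.05). At day 27, 1 gene, Fos, was lower against day 3 (-3.31) and against day 6 (-2.31). Etv4, an ETS transcription factor that ERK signalling raises, had 59.0 to 109 in late tumours with a median of 99.1, against 12.6 and 22.2 at day 3 and 42.7 and 45.1 at day 6. All late tumours were above all early tumours, and the late range overlapped the controls, at 60.7 to 137 (late minus early 1.59, SE 0.18, adjusted p = 0.000229 by limma). Ccnd1, the cyclin D1 gene, rose by 0.99 (adjusted p = 0.000582) and Fosl1, an AP-1 subunit, by 1.02 (adjusted p = 0.00372), both with day 6 tumours inside or near the late range. Dusp6, the phosphatase that acts back on ERK, had 140 to 224 in late tumours, against 93.2 and 103 at day 3 and 126 and 154 at day 6 (0.47, adjusted p = 0.012). Of 23 receptor tyrosine kinases and ligands, 7 rose and 2 fell, with a median of 0.15. Met, the receptor of hepatocyte growth factor, had 31.3 to 47.7 in late tumours, against 11.3 and 8.61 at day 3, 28.1 and 25.1 at day 6 and 17.2 to 25.5 in controls (1.22, SE 0.10, adjusted p = 8.61e-05). Axl, a receptor often raised in drug-tolerant melanoma, had 324 to 415 in late tumours and 290 to 430 in early tumours (0.07, adjusted p = 0.465).

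Cell division genes were called higher against day 3 and not against day 6. All 24 G2/M genes and all 24 G1/S genes tested rose late against early, with medians of 0.98 and 0.75. Mki67, a marker of cycling cells, had 46.2 to 55.2 in late tumours, against 14.3 and 15.7 at day 3 and 45.7 and 42.1 at day 6. Only the day 3 tumours stood apart by a wide margin. The G2/M median was 2.05 for day 18 and 1.71 for day 27 against day 3, with 24 of 24 genes called higher each time, and 0.25 for day 18 and -0.12 for day 27 against day 6, with 0 of 24 called by limma and 5 and 0 of 24 at an unadjusted p under 0.05. Of 20 Myc target and ribosome biogenesis genes 19 rose (median 0.72), of 17 ATF4 and amino acid response genes 8 rose (median 0.57) and of 21 cholesterol synthesis genes 9 rose and 1 fell (median 0.99). These calls too lay mostly against day 3, where 19 Myc target, 7 ATF4 and 13 cholesterol genes were higher at day 18 and 19, 10 and 17 at day 27. Against day 6, none of the 3 lists had a gene called higher at day 18 by limma, with 7, 1 and 0 genes called in either direction at an unadjusted p under 0.05. At day 27 against day 6, 0 Myc target, 2 ATF4 and 0 cholesterol genes were called higher, with 0, 6 and 1 genes called in either direction at an unadjusted p under 0.05. Asns, asparagine synthetase, had 42.5 to 108 in late tumours, against 10.04 and 9.26 at day 3 and 29.0 and 39.6 at day 6. It was above every early tumour in every late tumour (1.76, SE 0.22, adjusted p = 0.00036). Oxidative phosphorylation genes rose in 5 of 18 cases (median 0.16) and glycolysis and hypoxia genes rose in 6 of 22 and fell in 1 (median 0.26), and the other genes of both lists were not called.

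Markers of most immune cell types were lower in late tumours. All 21 T cell genes fell (median -1.85), 16 of 17 cytotoxic and NK cell genes (median -2.26), 19 of 22 monocyte and macrophage genes (median -1.47), 11 of 16 dendritic cell genes (median -0.95) and 11 of 12 mast cell genes (median -1.86), with 0 rises in these lists. Of 13 neutrophil genes 5 fell and 1 rose (median -0.39), and of 6 B and plasma cell genes 1 fell (median -0.35). Of 18 genes of alternatively activated macrophages 11 fell and 1 rose (median -1.06), and 2 were higher at day 18 than at day 6. Against day 6, 0 genes of the cytotoxic, monocyte, dendritic and mast cell lists were called at day 18 by limma. At an unadjusted p under 0.05 the counts were 11 of 17, 1 of 22, 4 of 16 and 0 of 12. Over all genes tested the count at that threshold was 2188 of 15841 for day 18 against day 6, and 4372 for day 27 against day 6. At day 27 the counts lower than at day 6 were 14, 6, 4 and 8 (17, 19, 10 and 10 in either direction at an unadjusted p under 0.05). Ptprc, which encodes CD45 of white blood cells, had 14.1 to 53.6 in late tumours with a median of 22.98, against 121 and 183 at day 3 and 57.3 and 140 at day 6. Late and early tumours did not overlap, and the controls, at 6.01 to 29.2, overlapped the late range (late minus early -2.05, SE 0.43, adjusted p = 0.00414 by limma; late minus control 0.70, adjusted p = 0.346). Cd8a, the co-receptor of killer T cells, had 1.10 to 11.8 in late tumours, against 12.2 and 15.7 at day 3 and 10.05 and 50.6 at day 6 (-1.91, adjusted p = 0.00797).

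Genes of antigen presentation and interferon response fell with them. All 17 MHC class I presentation genes (median -1.35) and all 14 MHC class II genes (median -1.78) fell, as did 17 of 25 interferon response genes (median -1.51), 14 of 22 chemokines (median -1.40) and 14 of 17 immune checkpoint genes (median -1.34). Cxcl9, a chemokine that interferon gamma induces and T cells follow, had 85.6 and 15.3 at day 18 and 15.9 to 24.3 at day 27, against 502 and 643 at day 3 and 100 and 471 at day 6. The highest late tumour, day 18 tumour 1, was close to the lowest early tumour, day 6 tumour 1 (-3.67, SE 0.49, adjusted p = 0.000482). Irf1, an interferon-induced transcription factor, had 90.1 to 125 in late tumours, against 413 and 336 at day 3 and 167 and 389 at day 6, with controls at 95.7 to 122. Late tumours all lay below early ones and overlapped the controls (-1.52, SE 0.20, adjusted p = 0.000503). Cd274, the PD-L1 gene, had 4.18 to 13.3 in late tumours with a median of 6.05, against 52.0 and 69.6 at day 3 and 15.04 and 59.9 at day 6 (-2.46, SE 0.36, adjusted p = 0.000728). Pdcd1lg2, the PD-L2 gene, had at most 1.45 in late tumours and at least 3.38 in early tumours (-2.35, SE 0.20, adjusted p = 9.7e-05). Against day 6, none of the T cell, MHC class I, MHC class II, interferon or checkpoint genes was called at day 18 by limma, whereas at day 27 19 of 21, 17 of 17, 9 of 14, 14 of 25 and 10 of 17 were lower. At an unadjusted p under 0.05 the counts at day 18 were 7 of 21 T cell genes, 11 of 17 MHC class I, 0 of 14 MHC class II, 12 of 25 interferon and 3 of 17 checkpoint genes. Over all genes 0.145% were called lower for day 18 against day 6 and 7.76% for day 27 against day 6, where 3.81% were called higher.

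**Figure D3:**
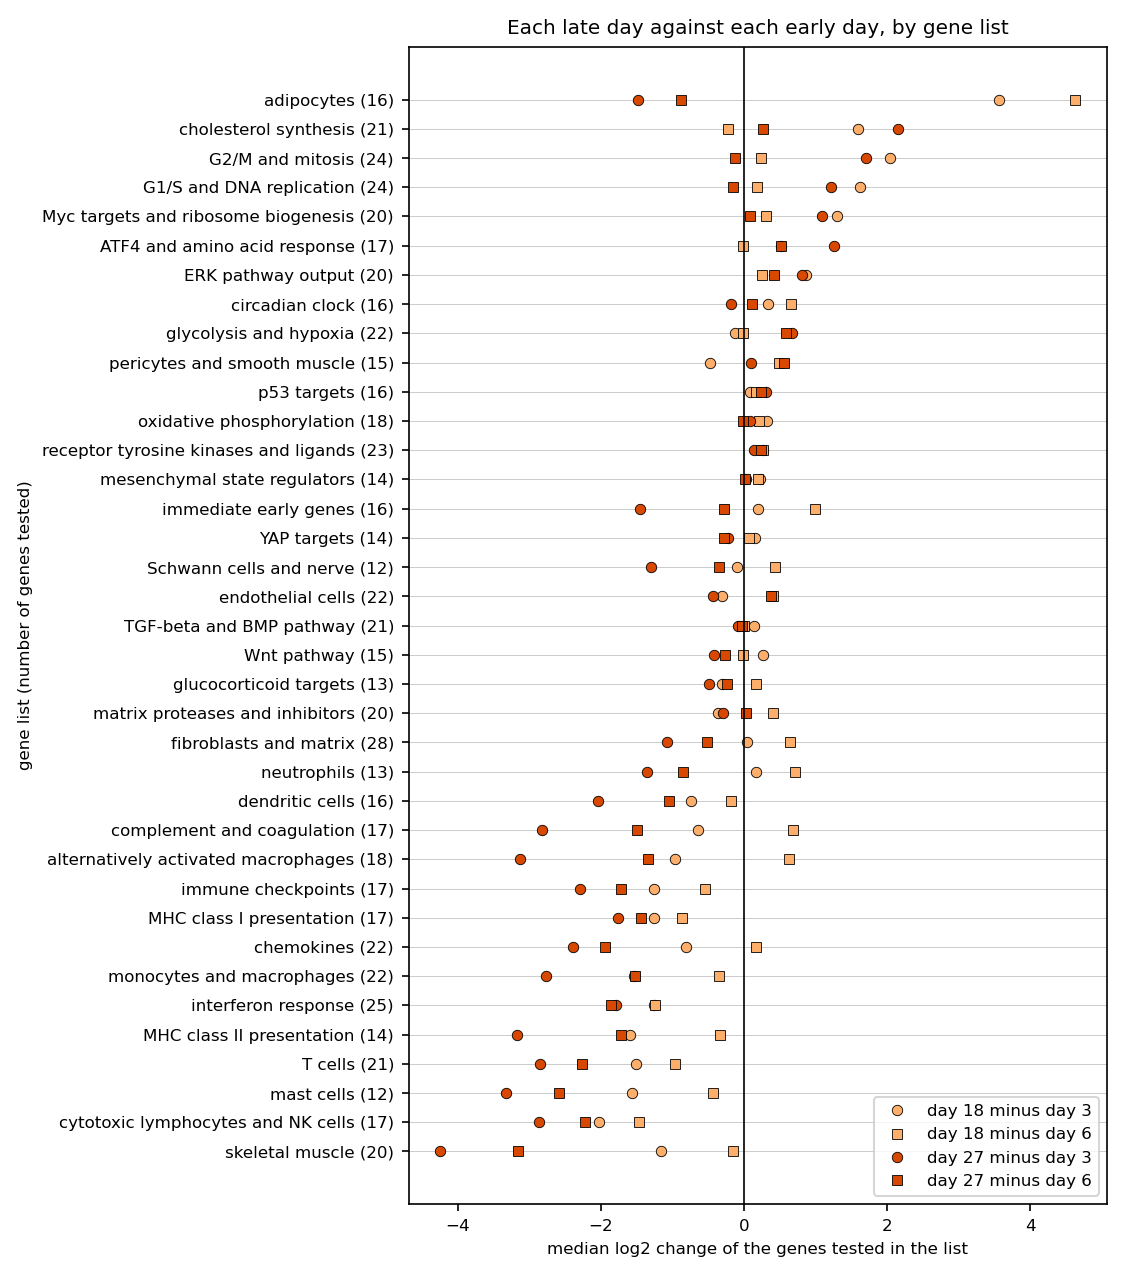
Median log2 change of each gene list with at least 10 genes tested, for day 18 and day 27 (colours) against day 3 (circles) and day 6 (squares); numbers beside the names are genes tested. T cell, cytotoxic, MHC and interferon lists lie left of 0 in all 4 comparisons, cell division lists lie well right of 0 against day 3 and near 0 against day 6, and adipocyte genes lie right of 0 for day 18 and left of 0 for day 27.

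Of 22 endothelial genes 1 rose and 0 fell (median -0.03), of 15 pericyte and smooth muscle genes 5 rose and 1 fell (median 0.21), and of 28 fibroblast and matrix genes 1 rose, Col15a1, and 4 fell (median -0.25). The late days differed for fibroblast and matrix genes: 14 of 28 were lower at day 27 than at day 18 (median -1.06), 19 were lower at day 27 than at day 3 (median -1.08), and 4 were higher at day 18 than at day 6 (median 0.65). The endothelial gene that rose was Esm1, endocan, which growing vessels secrete, with 47.6 to 125 in late tumours, against 6.00 and 9.92 at day 3 and 47.3 and 35.7 at day 6 (1.96, SE 0.26, adjusted p = 0.000497). The lowest late tumour was level with day 6 tumour 1. Of 20 matrix proteases and inhibitors 5 rose and 5 fell (median -0.17), among them Mmp10, stromelysin-2, which had 15.1 to 27.3 in late tumours and 0.386 to 12.6 in early tumours, and Timp1, an inhibitor of these enzymes, which had 365 to 551 in late tumours and 119 to 306 in early tumours.

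The late days differed from each other in 1592 genes, with 505 higher (3.19% of those tested) and 1087 lower (6.86%) at day 27 than at day 18. The balance of directions depended on the scaling. Quantile normalisation turned it, with 1212 higher and 840 lower. Median-of-ratios rescaling narrowed it without turning it, with 683 higher and 927 lower. Fat cell genes were the widest split. All 16 adipocyte genes tested were lower at day 27 than at day 18, with a median of -5.38. Adipoq, the adiponectin gene, had 0 to 0.0827 at day 27 and 111 and 142 at day 18, while the early tumours had 1.33 to 6.40. The summed signal of the adipocyte list ran from 66.6 to 3714 in late tumours, from 132 to 364 in early tumours and from 87.6 to 164 in controls. Late against early, 10 of the 16 were called higher (median 1.46), and without the day 18 tumours the change of Adipoq was -1.74 (adjusted p = 0.00739 by limma). Prtn3 and the adipocyte genes were both highest in the day 18 tumours; their part in each other's values was not tested.

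At day 27, 7 of 12 mast cell genes, 11 of 17 complement and coagulation genes and 6 of 20 skeletal muscle genes were lower than at day 18. Cma1, a mast cell chymase, had 0.540 to 7.80 at day 27 and 32.3 and 36.6 at day 18, against 198 and 146 at day 3 and 56.0 and 46.0 at day 6. Late and early tumours did not overlap (late minus early -3.19, SE 0.50, adjusted p = 0.00101). C3, the central complement protein, had 3.01 to 5.84 at day 27 and 355 and 203 at day 18, so day 18 lay within the early range of 79.8 to 628 and day 27 below it. Col1a1, the main fibrillar collagen, had 302 to 467 at day 27 and 1198 and 1050 at day 18 (day 27 minus day 18 -1.56, adjusted p = 0.00276). Of 20 skeletal muscle genes 14 fell late against early (median -2.32); the list's summed signal was 83.9 and 2528 at day 18 and 29.4 to 56.2 at day 27, against 467 to 1233 in early tumours, so the day 18 tumours lay on either side of the early ones. Per1, a clock gene that glucocorticoids also raise, had 6.23 to 18.1 at day 27 and 35.8 and 30.1 at day 18, against 45.6 to 52.2 in early tumours (late minus early -1.44, SE 0.25, adjusted p = 0.00159). Of 16 clock genes tested, 3 rose and 1 fell late against early (median 0.31). Of 13 glucocorticoid targets, 1 rose and 3 fell (median -0.13). No label gives the hour of sampling.

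**Figure D4:**
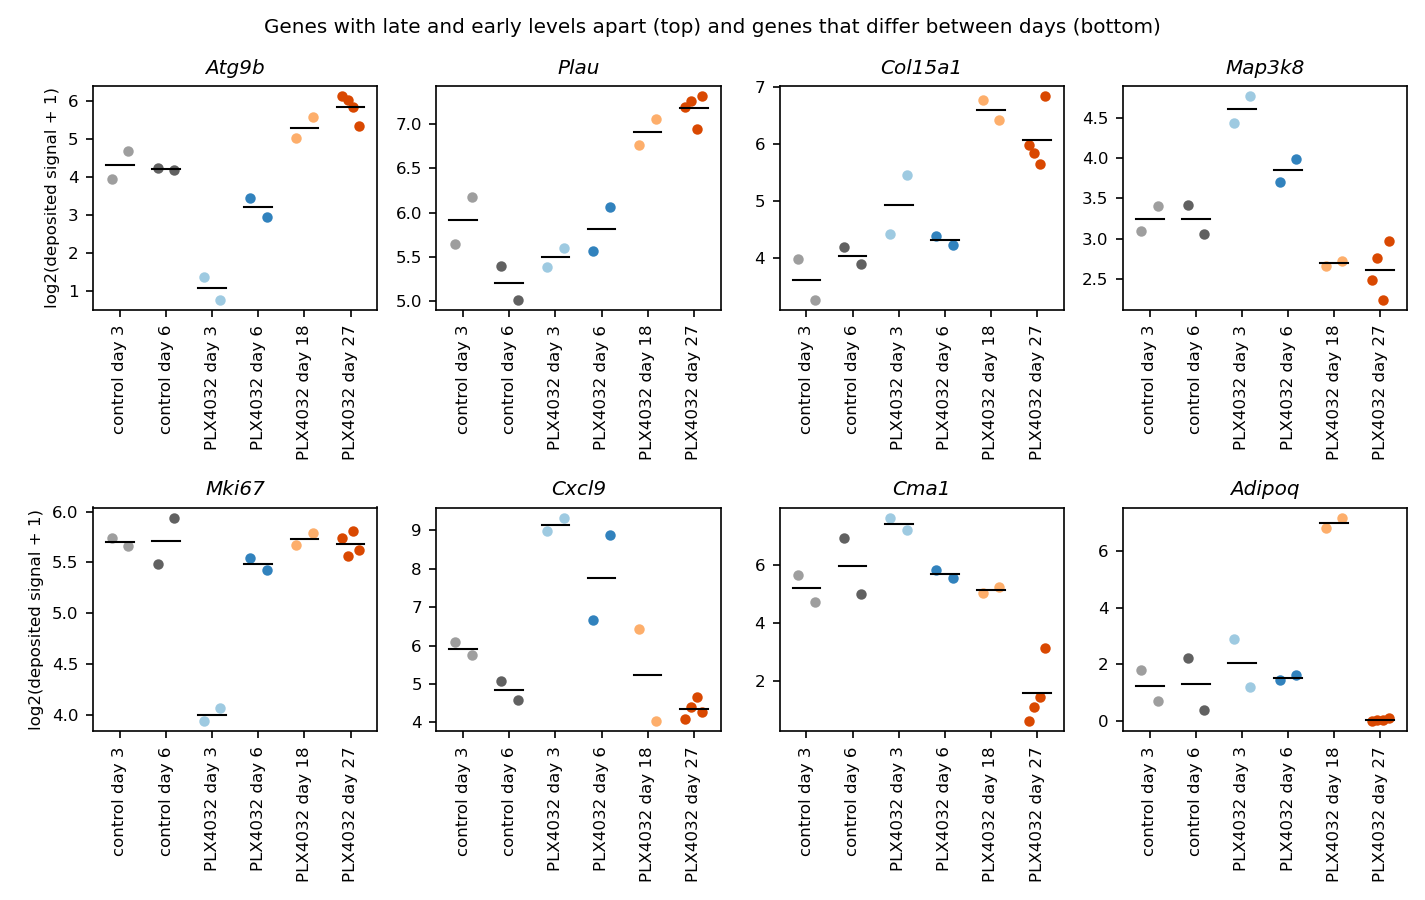
Signal of 8 genes in each tumour, as log2(deposited signal + 1), by group, with controls at the left and PLX4032 days in order; points are tumours, bars are group means of the log2 values, and each panel has its own scale. Late tumours stand apart from early tumours for Atg9b, Plau, Col15a1 and Map3k8 (top), while Mki67 is low at day 3 alone, Cxcl9 is lower at both late days than at day 3, Cma1 is lowest at day 27, and Adipoq is high at day 18 alone (bottom).

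In female hosts Y-linked transcripts can come only from the injected cells. Ddx3y, a Y-linked RNA helicase gene, had 12.2 to 25.1 in late tumours with a median of 18.9, against 10.9 and 11.4 at day 3 and 13.7 and 7.87 at day 6 (0.65, SE 0.24, adjusted p = 0.047 by limma), and the controls had 17.4 to 25.0. Xist, the RNA of the inactive X chromosome of female cells, had 13.01 to 41.5 in late tumours with a median of 16.5, against 51.3 and 78.5 at day 3 and 27.3 and 36.1 at day 6 (-0.92, SE 0.28, adjusted p = 0.022). Late and early tumours overlapped for both genes. Of 3 Y-linked genes tested, 1 was called higher late against early by limma (2 in either direction at an unadjusted p under 0.05). In each of the 4 day comparisons 0 of them were called. Late against early, Xist fell as the T cell list did. At day 18 against day 6 Xist changed by 0.17, where the T cell median was -0.96 and that of alternatively activated macrophages 0.63. The part of the mix of cells in the changes of single genes was not tested.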

How the data were processed

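Whole-tumour RNA was sequenced from 14 tumours, and the authors deposited 1 table of signal per gene and tumour. Per the submitters' processing notes kallisto, sleuth and mm10 were used, with no versions listed. The deposited signal resembles TPM rescaled between samples, since 5 of 14 column totals lie above the fixed sum that TPM would give. It carries no counts, so depth and counting error are unknown. The table lists 18481 genes, of which 15841 had a signal of 1 or more in at least 2 tumours and were tested. Values were taken as log2(signal + 1) and fitted with limma 3.58.1 in R 4.3.3 as 6 group means with a mean-variance trend and 8 residual degrees of freedom, with Benjamini-Hochberg adjustment over all genes tested. The fit was run on simulated data with independent noise per tumour and a shift common to all late tumours. That run had no shared mice and no differences between days, so it cannot vouch for the calls here. Columns name a group and not a mouse. Genes named were the 15 with the largest changes per direction among those differing in all 4 day comparisons with a signal of 5 or more in either group, up to 5 per gene list with the smallest p, the 3 genes on each side of the threshold, a short set of markers (Mki67, Cd274, Cd8a, Ptprc, Etv4, Dusp6, Ccnd1, Fosl1, Adipoq, Col1a1, Axl, Met, Mitf, Vim, Xist and Ddx3y among them), and others where stated. The members and the gene lists were chosen with earlier results of these data known. Alternatives changed the pseudocount, filter, normalisation, weights, treatment of the day 27 tumours and tumours included. Promoter windows came from RefSeq (GRCm38.p6), and 17859 of 18481 symbols (96.6%) matched the annotation.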

Additional observations from a re-analysis of the deposited data

Results flagged for a closer look

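Of 61 genes checked, 6 had 1 day 27 tumour far from the other 3 by Dixon's test, which flags about 1 in 20 groups by chance. Tumour 4 stood apart for Cma1 (signal 7.80, others 0.540 to 1.78), Cd8a (1.10, others 3.16 to 3.48) and Ptprc (34.1, others 14.1 to 16.3). Tumour 2 stood apart for Abtb2 (4, others 2.98 to 3.10) and Marco (0.653, others 0.0524 to 0.113), and tumour 1 for Ptpn13 (6.06, others 7.10 to 7.28).

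In 8 of the genes the change from the early tumours differed between day 27 and day 18 by limma. The day 27 change minus the day 18 change was -6.93 for Adipoq (adjusted p = 2.24e-05), -5.62 for C3 (adjusted p = 0.00028) and -3.56 for Cma1 (adjusted p = 0.00788). It was -2.40 for Prtn3, whose change was 0.90 at day 27 and 3.30 at day 18. It was -1.70 for Per1 (adjusted p = 0.01) and -1.56 for Col1a1 (adjusted p = 0.00276). It was -0.997 for Gpr84 and -0.464 for Rab7b, which were below the early tumours at both late days. The day comparisons chose Prtn3, Gpr84 and Rab7b, so the differences of these genes are given as a description.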

How the results depend on the processing

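No paired analysis was possible because the late and early labels share no replicate numbers. The number of genes called late against early (6331) was 3680 with day 27 averaged to 1 sample, 4657 to 6523 leaving out each tumour, and, in alternatives chosen after seeing the data, 3220 without day 27 and 144 without day 3; with quantile normalisation it was 6815, of which 61.1% were higher, against 51.5%. The number differing in all 4 day comparisons (26) was 17 with a pseudocount of 0.1, 40 with quantile normalisation, 45 with sample weights, 46 in a fit of the treated tumours alone, 14, 5 and 13 with day 27 averaged as 2 mice, 0 with day 27 as 1 sample, 5 at an adjusted p under 0.01, 1714 by the rule of no overlap and 1 to 118 leaving out each tumour. Chosen after seeing the data, it was 1692 without day 18, 168 without day 27 and 4566 without day 6, where fewer comparisons are required. Day 27 against day 18 (1592) gave 3209 with sample weights, 591, 472 and 594 as 2 mice, 95 as 1 sample and 552 to 1919 leaving out each tumour (568 and 552 without day 18 tumours 1 and 2; 907 and 812 without day 27 tumours 1 and 2). Late against control (1084) gave 697, 475 and 709 as 2 mice, 49 as 1 sample and 274 to 1672 leaving out each tumour (417 and 521 without day 18 tumours 1 and 2, 629 without day 27 tumour 1, 274 without control day 3 tumour 2, 1672 and 430 without control day 6 tumours 1 and 2). Day 6 against day 3 (2892) gave 1074 to 3230, and early against control (5674, 55.9% higher) gave 3935 to 5980, and with quantile normalisation 6867, of which 37.0% were higher. Adipoq turned to -1.74 without day 18 and C3 to 0.22 without day 27, where it was not called (adjusted p = 0.824). The cause of these shifts was not tested.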
